A study of Mus musculus with 2 samples.

Results

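The 77 genes described here encode the proteins of the cytosolic ribosome. They were chosen by name: every column called Rps or Rpl with digits and at most one of the letters a, x, l or y, together with Rpsa, Rplp0, Rplp1 and Rplp2. Of the 22023 genes listed in both tables, 80 have such a name, and the 77 with at least 200 unique molecular identifiers (UMIs, each counting 1 captured RNA molecule) over both libraries were kept. The 3 left out are near-copies of other members and were almost silent, with 27 UMIs of Rpl3l, 22 of Rpl39l and 5 of Rpl10l, whereas the lowest gene kept, Rpl13a, had 36009. Of the 77, 31 belong to the small subunit (names in Rps) and 46 to the large subunit (Rpl). All 77 are placed by GENCODE M21 on mm10, over 19 chromosomes, 4 of them on the X.

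The ribosome joins amino acids in the order an mRNA dictates. Its small subunit reads the mRNA and its large subunit forms the peptide bond, and each subunit is a scaffold of ribosomal RNA clad in proteins needed in nearly equal numbers. Their mRNAs are among the most abundant in a dividing or secreting cell, and many begin with a run of pyrimidines, the TOP tract, through which Larp1 and the mTOR kinase adjust their translation. In the fetal pancreas, acinar cells begin to make digestive enzymes, while trunk cells of the duct epithelium switch on Neurog3, pass through a stage marked by Fev and become hormone-producing alpha, beta and delta cells.

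Single cells of the mouse fetal pancreas at E15.5 were profiled, with 1 library from WT embryos and 1 from Mettl3pKO embryos, in which the Pdx1+ pancreatic progenitors lack Mettl3, the enzyme subunit that writes the m6A mark on RNA. The labels name no treatment for either group. Both libraries held cells with UMIs of Y-linked genes and cells with UMIs of Xist, 1699 and 3352 in WT and 2039 and 688 in Mettl3pKO, so that each contained cells of more than 1 embryo. Blood, immune and connective tissue cells in the Mettl3pKO library come from outside the Pdx1+ lineage, apart from any cell misplaced in its class.

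With 1 library per genotype there is no replicate and no test. All intervals are 95% intervals for counting error and say nothing about the spread between embryos. Depth differed: 6384 WT cells carried 80011421 UMIs in all (median 10823, lowest 3803 per cell), and 3624 Mettl3pKO cells carried 65779771 (median 16481, lowest 10719). Both deposited tables end within a line, so that cells may be missing from either. Whether shallow cells are among them is not known, and cell numbers, depths and class makeup describe only the cells present. The libraries share 33 cell labels. Levels of single genes are given as UMIs per 1000000 UMIs of the cells compared (CPM). Mettl3 itself was at 9.28 CPM in WT and 7.27 in Mettl3pKO acinar-like cells, and 17.4 and 12.7 in trunk-like cells. Outside the deleted lineage it was at 16.3 and 13.1 CPM in mesenchyme-like and 23.4 and 7.89 in erythroid-like cells. It was at 16.01 and 15.55 in immune cells, and higher in Mettl3pKO in mesothelium-like cells, at 14.0 and 21.9. The erythroid-like values rest on 35 and 7 UMIs. Whether the lower epithelial values came from the deletion was not tested. Which part of Mettl3 is deleted is not given in the labels, and a tag outside it would not show the deletion. Cells were grouped without any ribosomal protein gene and named from markers, each name standing for cells like that type. In 8 classes at least 30 Mettl3pKO cells could each be paired with a WT cell of the same class whose total differed by at most 5%. Clusters left unnamed held 42 WT and 300 Mettl3pKO cells and enter no class. All of these Mettl3pKO cells were in clusters that met the marker rules but had a median doublet score above the limit of 0.1.

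To show what the transcripts of these genes look like at their first bases, 30-base windows from 5 bases before the annotated start are printed for genes on which the results turn. Rps26 and Rps12 had the most UMIs, and Rps27 and its near-copy Rps27l behaved differently from each other. Rpl12 and Rpl36a fell most from trunk-like to beta-like cells. Rpl41 and Rps6 stood high in acinar cells, and Rpl6 was low in several classes of the Mettl3pKO library. Capitals mark the longest run in the window that starts with C and goes on with at least 4 bases of C or T, and a window with no capitals holds no such run. The sequences are from RefSeq (GRCm38.p6), each read 5′ to 3′ along the gene.
Rps26 (chr10:128626482-128626511, minus strand): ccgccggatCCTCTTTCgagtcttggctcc
Rps12 (chr10:23787185-23787214, minus strand): cggccaccgccggCCTTTTCCCCTgccgcc
Rps27 (chr3:90213624-90213653, minus strand): tcgCTCCTTTCCggcggtgacgacctccct
Rps27l (chr9:66946081-66946110, plus strand): ccgccgCCTCTatcccggaagttgctgagg
Rpl12 (chr2:32961707-32961736, plus strand): gatccgtCTTTTCggctttcggctcggagg
Rpl36a (chrX:134585649-134585678, plus strand): gcaccgcctataaaCTTCCgttgcggctct
Rpl41 (chr10:128549144-128549173, minus strand): ggctcggaagtgacgacaccgagcacgcca
Rps6 (chr4:86857343-86857372, minus strand): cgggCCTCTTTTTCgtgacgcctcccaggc
Rpl6 (chr5:121204496-121204525, plus strand): ccgtcattgcttatagaccggaagccgctg

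Of the 77 genes, 57 matched the promoter table, with 68 annotated starts. A run of C followed by 4 or more C or T began exactly at 13 of these starts, 19.1%, against 2.51% of the 32851 starts of all genes. Within 5 bases of the start, to allow for an annotation that is off by a few bases, it began at 44.1% of the ribosomal protein starts and 18.3% of all. The letters CGGAAG, the core to which ETS-family factors such as Gabpa bind, were searched on both strands of the 300-base promoter window. They occurred in 63.2% of the ribosomal protein promoters and in 16.9% of all. The reverse complement, CTTCCG, itself starts with a run of the kind searched at the starts, so the motifs can overlap.

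Ribosomal protein UMIs made up 12.3% of all UMIs in WT and 13.9% in Mettl3pKO. These values mix classes in unlike proportions, with acinar-like cells 1852 of 6034 in WT and 2118 of 3622 in Mettl3pKO. Without matching on depth, the share was lower in Mettl3pKO in acinar-, trunk- and mesenchyme-like cells and higher in most other classes. The share depended strongly on cell class. It was highest in WT acinar-like cells, 16.6% (interval 16.6 to 16.7, 1852 cells), where the median cell held 2186.5 ribosomal protein UMIs. Erythroid-like cells followed with 13.0% and duct and trunk-like cells with 12.8%. Endothelium-like cells had 11.5%, immune cells 10.8%, pericyte and smooth muscle-like cells 10.7%, mesenchyme-like cells 10.1% and mesothelium-like cells 9.07%. Endocrine progenitor-like cells fell into 2 unlike clusters and are given by cluster below. The lowest values of these classes were those of endocrine cells: 5.37% in alpha-like, 5.30% in delta-like, 5.29% in Fev precursor-like and 4.75% in beta-like cells. In the Mettl3pKO library acinar-like cells were again highest, with 15.96%, and beta-like cells lowest, with 5.13%. The middle 50% of WT acinar-like cells, 15.0% to 18.3%, did not overlap that of beta-like cells, 4.21% to 5.26%, nor did they in Mettl3pKO. Neighbours in the middle of this order, from endothelium-like to mesothelium-like cells, overlapped in their middle 50% of cells.

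**Figure D1:**
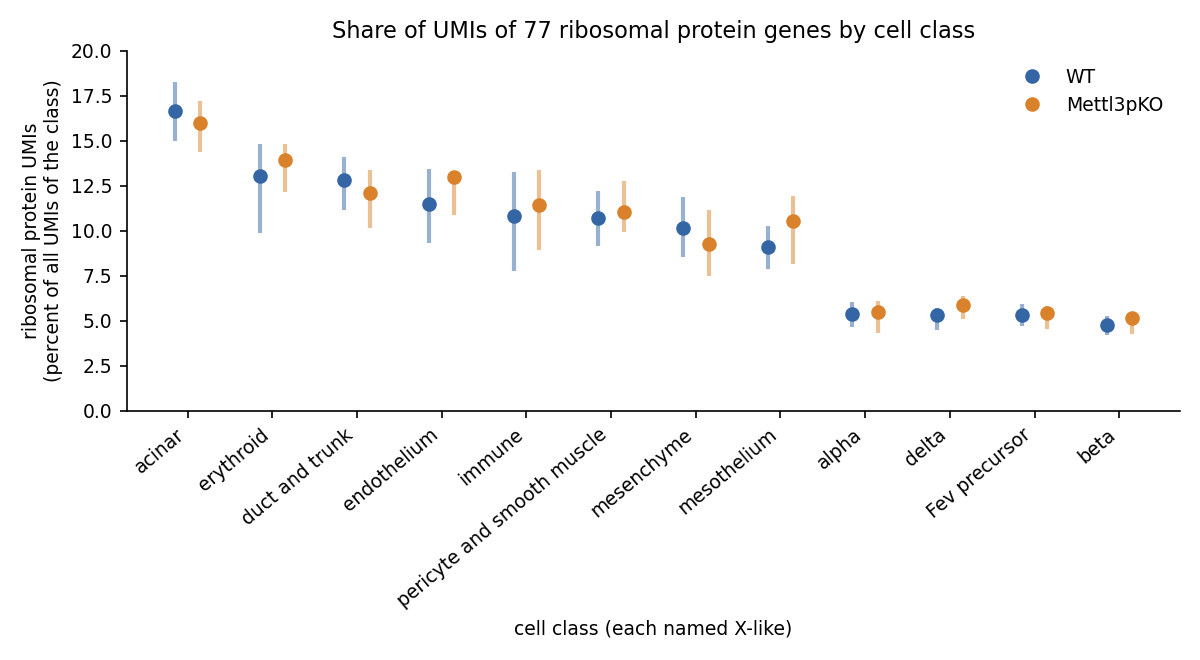
Share of UMIs from the 77 ribosomal protein genes (y axis, percent of all UMIs of the class) in each cell class (x axis) for WT (blue) and Mettl3pKO (orange); points are pooled shares and bars span the middle 50% of cells. Acinar-like cells sit highest, at 16.6% and 15.96%, and alpha-, delta-, Fev precursor- and beta-like cells sit between 4.75% and 5.89%.

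A share also moves when another abundant product fills the cell. Digestive enzymes took 13.8% of the UMIs of WT acinar-like cells and hormones 18.5% of those of beta-like cells. With mitochondrial, enzyme and hormone UMIs left out of the total, the ribosomal protein share was 21.0% in acinar-like, 14.1% in trunk-like, 6.63% in alpha-like and 6.43% in beta-like cells. Acinar-like cells were thus further above trunk-like cells on this scale, and beta-like cells were level with alpha-like cells.

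Within WT acinar-like cells the share changed little as enzymes built up. Acinar-like cells of both libraries together were ordered by their share of enzyme UMIs and divided into 5 groups of equal number, the lowest under 4.41% enzyme and the highest over 17.5%. The ribosomal protein share of all UMIs in WT was 16.4% in the lowest group, then 16.5%, 16.8% and 17.4%, and 16.1% in the highest. As a share of the UMIs left after mitochondrial, enzyme and hormone genes, it was higher in each successive group, from 18.9% to 23.2% in WT and from 18.5% to 22.3% in Mettl3pKO. The share of cells with at least 2 UMIs of 9 proliferation genes went from 91.7% in the lowest to 39.7% in the highest WT group. The share of all UMIs was 16.7% in cycling and 16.3% in other WT acinar-like cells, and 12.8% in both kinds of WT trunk-like cells. Enzymes took 11.1% of UMIs in cycling and 21.1% in other WT acinar-like cells. With mitochondrial, enzyme and hormone UMIs left out, the order was reversed in WT acinar-like cells, at 20.6% in cycling and 22.5% in other cells.

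Along endocrine differentiation in WT the share stayed high through the first progenitor cluster, in which Neurog3 was already on, and then stepped down. Trunk-like cells with no Neurog3 UMI had 12.9% (1053 cells), those with 1 to 2 Neurog3 UMIs 12.1% (99 cells) and those with 3 or more 11.4% (46 cells). Of the 2 progenitor clusters, the first, with Neurog3, Gadd45a and Btbd17 among its 10 leading genes, had 11.6% (126 cells), close to trunk-like cells with Neurog3. The second, with Ghrl, Neurod2, Neurog3, Pax4 and Cck, had more Fev precursor than progenitor markers among its 10 leading genes. It had 7.04% (148 cells), and its middle 50% of cells were spread from 5.30% to 8.78%, wider than at any other WT stage compared. The Fev precursor-like cluster, with Chgb, Fev and Mnx1 among its leading genes, had 5.29% (282 cells), at the level of the alpha-, beta- and delta-like cells.

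Within the second progenitor cluster, the 126 cells that still held a Neurog3 UMI had a share of 7.45%, and the 22 without one had 4.88%. The 41 cells with a Fev UMI had 6.42% and the 107 without had 7.29%. The cells of lowest share were those without Neurog3, and they lay at the level of beta-like cells. They also held more hormone UMIs, 3.31% against 0.740% in the cells with Neurog3. The first leading gene of the cluster, Ghrl, is a hormone gene and a marker of epsilon cells. Whether the cells without Neurog3 were hormone-producing cells and not progenitors was not tested. A gene seen in few UMIs per cell misses many cells that express it, so both splits are incomplete.

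**Figure D2:**
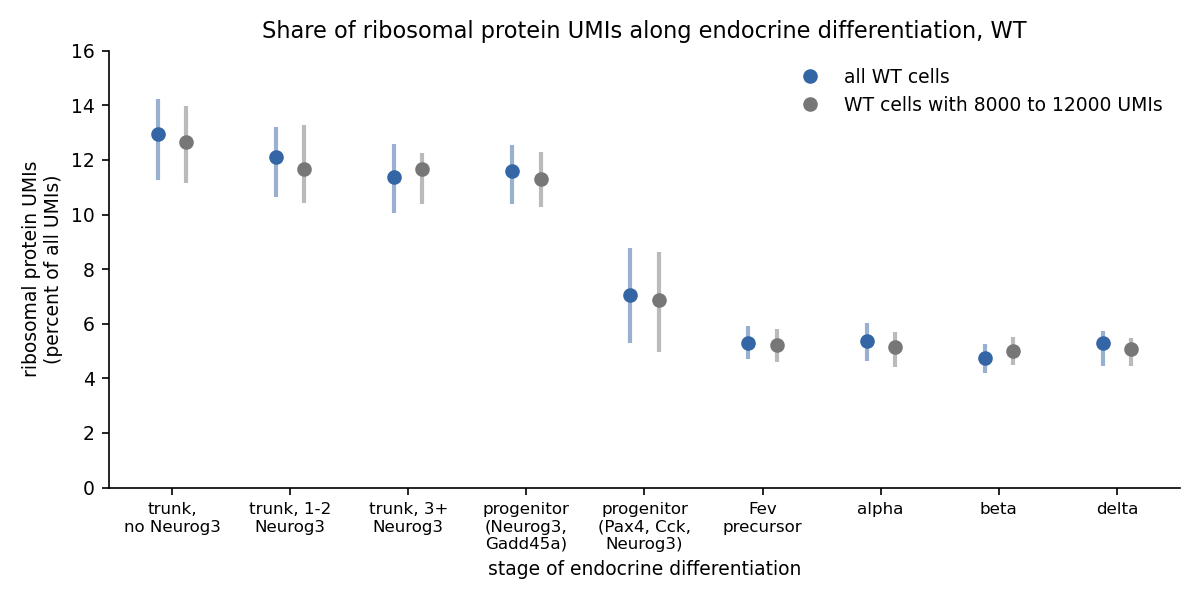
Share of ribosomal protein UMIs (y axis, percent of all UMIs) in WT cells at successive stages of endocrine differentiation (x axis); points are pooled shares, bars span the middle 50% of cells, blue is all cells and grey is cells with 8000 to 12000 UMIs. The share is 11.4% to 12.9% up to the first progenitor cluster, 7.04% in the second and about 5% from the Fev precursor-like stage on, and the grey points follow the blue ones.

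The step was about as large at matched depth. Among WT cells with 8000 to 12000 UMIs the share was 12.6% in trunk-like cells without Neurog3, 11.7% with 1 to 2 and 11.7% with 3 or more Neurog3 UMIs, 11.3% and 6.87% in the first and second progenitor clusters, 5.22% in Fev precursor-like, 5.15% in alpha-like, 4.99% in beta-like and 5.09% in delta-like cells. In numbers of molecules, the median WT trunk-like cell without Neurog3 held 1321 ribosomal protein UMIs and the median Fev precursor-like cell 505. Their UMIs of all genes outside the ribosomal protein, mitochondrial, enzyme and hormone sets were alike, with medians of 8101 and 8079. Proliferating cells made up 56.6% of the former and 5.32% of the latter, and 13.5% of the first and 4.73% of the second progenitor cluster. The part of proliferation in the step was not tested.

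The fall was common to all members. In WT beta-like against trunk-like cells, 77 of 77 genes were lower by at least 20% in CPM, where 58.2% of the 9150 genes compared were. None was higher by at least 25%, the same fold change in the other direction, where 19.9% of all genes were. Genes past either bound are called lower or higher below, with no test. The median ratio of the 77 genes was 0.371 and that of all genes compared 0.698. In Fev precursor-like cells 77 of 77 were lower as well, against 39.3% of all genes, and none higher, against 31.8%. In alpha-like cells 77 of 77 were lower against 42.3%, and none higher against 29.9%, and in delta-like cells 77 of 77 were lower against 45.8%, and none higher against 26.6%. The first endocrine progenitor-like cluster had 2 of 77 lower, Rpl41 at a ratio of 0.765 and Rpl10 at 0.798, against 25.9% of 8644 genes, and none higher, against 24.3%, with a median ratio of 0.898. The second had 76 of 77 lower, all but Rpl37a (0.922), against 37.9% of 8738 genes, and none higher, against 34.0%, with a median ratio of 0.546. These comparisons share the trunk-like cells, and the counts are therefore not independent of each other.

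**Figure D3:**
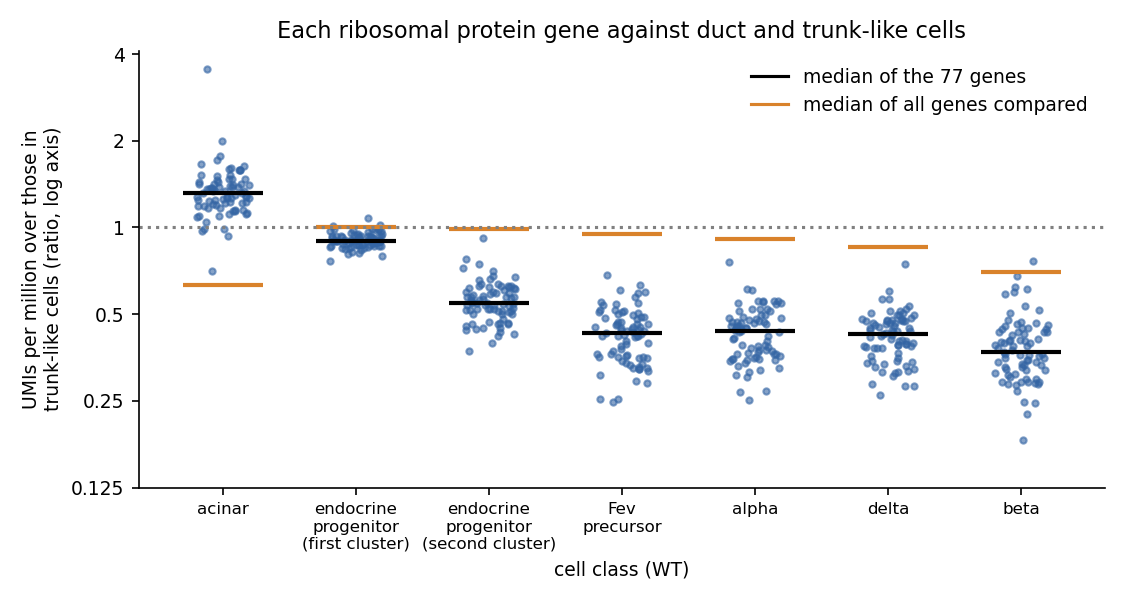
CPM of each of the 77 genes in 5 WT classes and the 2 endocrine progenitor-like clusters over duct and trunk-like cells (y axis, ratio on a log axis); each point is 1 gene, black lines are the medians of the 77 genes and orange lines those of all genes compared. All points lie below 1 in the second progenitor cluster and in Fev precursor-, alpha-, delta- and beta-like cells, while most acinar points lie above 1, with Rps27l at 3.54.

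The genes did not all fall equally. Rpl36a, an X-linked large-subunit gene, fell furthest from trunk-like to beta-like cells, from 1279 to 233.9 CPM, a ratio of 0.183 (0.171 to 0.195). Rpl12, whose protein sits at the base of the stalk that recruits elongation factors, went from 1219 to 275.4 CPM, a ratio of 0.226 (0.212 to 0.240). Rpl22 had a ratio of 0.247. At the other end Rpl41, whose product is the shortest ribosomal protein, went from 991 to 673.4 CPM, a ratio of 0.680 (0.652 to 0.708). Rps27l had the highest ratio, 0.762 (0.696 to 0.834), with 191 CPM in trunk-like and 146.0 in beta-like cells.

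In acinar-like against trunk-like WT cells, 48 of 77 genes were higher, where 16.5% of 10175 genes were, and 1 was lower, where 63.7% were. The median ratio of the 77 genes was 1.32 and that of all genes 0.631. Rps27l, a near-copy of Rps27 that p53 is known to induce, rose most, from 191 to 678.5 CPM, a ratio of 3.54 (3.40 to 3.69). Rpl41 rose from 991 to 1973 CPM and Rps6, the target of the S6 kinases, from 1521 to 2687. The single gene that was lower was Rps27, at 2149 CPM in trunk-like and 1518 in acinar-like cells, a ratio of 0.706 (0.696 to 0.717). The near-copies Rps27 and Rps27l thus went in opposite directions. Against mesenchyme-like cells 74 of 77 were higher in acinar-like cells, where 29.9% of 10389 genes were, and none lower, where 53.6% were, with a median ratio of 1.72.

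Lists of genes that act with the ribosome are given beside the shares of all genes in the same comparison, 58.2% lower and 19.9% higher in beta-like against trunk-like cells, and have no test. Of 46 ribosome assembly factors, 45 could be compared between beta-like and trunk-like cells: 40 were lower and none was higher, with a median ratio of 0.425. Dkc1, the pseudouridine synthase of ribosomal RNA, went from 116.9 to 20.6 CPM. All 13 RNA polymerase I genes compared were lower, with a median ratio of 0.449; among them Taf1d went from 234 to 56.1 CPM. Of 38 translation factors 26 were lower and none higher, with a median of 0.614, while Eif4e, the cap-binding protein, was at 117 and 132.8 CPM. Of 77 mitochondrial ribosomal protein genes 55 were lower and 5 (Mrps33, Mrps12, Mrpl1, Mrpl41 and Mrpl57) higher, with a median of 0.661, near the 0.698 of all genes. Of 18 regulators of ribosomal protein synthesis 8 were lower, with Gabpa at 81.1 and 21.6 CPM, and 1, the Myc antagonist Mxd4, was higher, at 87.7 and 129.6. All 25 genes of secretion and ER folding were higher in beta-like cells, with a median ratio of 3.21. Of the cytosolic ribosome genes that the name rule misses, Rack1 fell to a ratio of 0.380 and Fau, a small-subunit protein fused to a ubiquitin-like one, to 0.428.

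In acinar-like against trunk-like WT cells, where 16.5% of all genes were higher and 63.7% lower, these lists held genes past both bounds. Of the translation factors 16 of 38 were higher and 8 lower; Eif5a went from 874 to 1744 CPM and Eef1d from 347.9 to 687. Of 46 assembly factors 12 were higher and 10 lower, and of 13 RNA polymerase I genes 1, Polr1e, was higher and 7 lower, the latter including Ubtf at 95.03 and 52.2 CPM. Of 18 regulators of ribosomal protein synthesis 3 were higher and 8 lower, with a median ratio of 0.856. Among the 3 were Larp1, which binds TOP mRNAs, at 161.6 CPM in trunk-like and 421.3 in acinar-like cells, and Myc at 30.5 and 70.4.

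The makeup of the ribosomal protein UMIs was steadier than their amount. The small subunit held 45.6% to 48.9% of them in every WT class with at least 30 cells. For each gene the share of the ribosomal protein UMIs was computed in 13 WT classes, and its standard deviation over classes was taken on the log2 scale. Rps15, a small-subunit gene, was steadiest, with a 1.09-fold difference between its highest and lowest class. The most class-dependent was Rps27l, with a 4.54-fold difference, from 0.0897% of the ribosomal protein UMIs in mesenchyme-like to 0.408% in acinar-like and 0.307% in beta-like cells. Rpl36a had 0.492% in beta-like and 1.14% in pericyte and smooth muscle-like cells. Rpl37a, a zinc-binding large-subunit protein, had 2.43% in alpha-like and 1.19% in erythroid-like cells. Rpl10, which lies near the site of peptide bond formation, had 0.894% in delta-like cells and 0.425% in pericyte and smooth muscle-like cells. Rpl41 had 1.42% in beta-like and 0.672% in endocrine progenitor-like cells of both clusters together. Rplp1, a protein of the stalk, had 3.12% in erythroid-like and 1.63% in delta-like cells. Rpl13a had 0.251% in alpha-like and 0.113% in mesenchyme-like cells, and Rpl12 0.981% in erythroid-like and 0.571% in alpha-like cells.

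**Figure D4:**
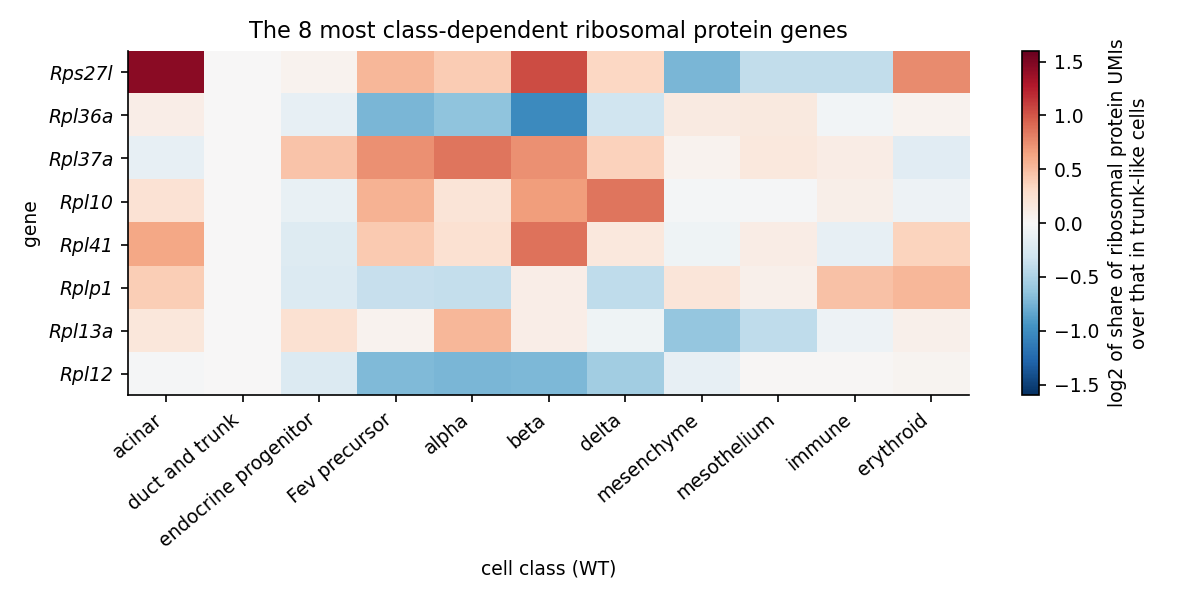
The 8 genes whose share of ribosomal protein UMIs varied most over WT classes (rows), by class (columns); colour is the log2 of that share over its value in duct and trunk-like cells, red higher and blue lower. Rps27l is reddest in acinar-like cells (0.408% against 0.149% in trunk-like cells) and Rpl36a is bluest in beta-like cells (0.492% against 0.998%).

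In order of UMI count, Rps26 led in WT with 3816 CPM (4437 in Mettl3pKO), and Rps12 with 3359, Rplp1 with 3146 and Rps9 with 2703 were also among the 5 highest. The lowest were Rpl10a with 616.8, Rpl27 with 512.5, Rpl36 with 376.5, Rps27l with 342.7 and Rpl13a with 220.5. This is an order of counted tags and not of mRNA abundance. Most of these genes have processed pseudogenes of near-identical sequence, and how reads shared between copies were counted is not stated in the labels or file headers. Genes on the X chromosome had ratios near those of the rest in WT trunk-like cells. Over 428 pairs matched on depth, cells with an Xist UMI and no Y-linked UMI had 0.963 times the Rps4x, 0.980 times the Rpl10, 0.925 times the Rpl36a and 0.982 times the Rpl39 of cells with a Y-linked UMI and no Xist UMI, and the median ratio of all 77 genes was 0.958.

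At matched depth, ribosomal protein genes differed little between the libraries. In 1165 pairs of acinar-like cells the share was 16.6% in WT and 15.9% in Mettl3pKO, a ratio of 0.960 (0.959 to 0.961). In 357 pairs of trunk-like cells it was 12.8% and 12.1%, a ratio of 0.944 (0.941 to 0.947). In 229 pairs of mesenchyme-like cells, which lie outside the deleted lineage, it was 9.08% and 9.24%, a ratio of 1.02 (1.01 to 1.02). The main mesenchyme-like clusters differed: paired within the cluster led by Ogn and Col5a3 the ratio was 0.981 (0.974 to 0.988, 113 pairs), and within the one led by Tubb6 and Mxd3 it was 1.04 (1.03 to 1.045, 111 pairs). The first held 883 WT and 124 Mettl3pKO cells and the second 276 and 152. Beta-like cells had 4.72% and 5.12% in 161 pairs, a ratio of 1.08, and alpha-like cells 5.45% and 5.38% in 136 pairs, a ratio of 0.987. Mesothelium-like cells had 8.50% and 9.38% in 51 pairs, a ratio of 1.10, immune cells 11.3% and 10.8% in 45 pairs, 0.962, and erythroid-like cells 14.5% and 13.9% in 42 pairs, 0.962. The immune class is mixed: it scored highest for macrophage markers, and its leading genes include the mast cell genes Cpa3 and Cma1 and also Lyz2, S100a8 and S100a9. The mix in its pairs was not compared between the libraries. The paired erythroid-like cells were of different clusters in the 2 libraries: 14 in WT and 40 in Mettl3pKO came from one led by Alas2, and 28 and 2 from one led by Car2 and Hemgn, so that genotype and cluster cannot be told apart there. The ratios ran from 0.944 to 1.08 in the pancreatic epithelium and from 0.962 to 1.10 in the classes outside the deleted lineage. Endocrine progenitor-, Fev precursor- and delta-like cells gave 11, 24 and 3 pairs, too few for the comparison.

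Several measures differed between the libraries beside these ratios, and their part in them was not tested. In paired acinar-like cells mitochondrial UMIs were 7.46% in WT and 10.5% in Mettl3pKO, enzymes 12.03% and 8.07%, and dissociation stress genes 0.799% and 1.03%, with 11 of 16 of the latter higher. In paired trunk-like cells stress genes were 0.961% and 0.754%, with 9 of 15 lower, and cycling cells 78.7% and 89.9%. Without mitochondrial UMIs in the total the acinar ratio was 0.993, and without mitochondrial, enzyme and hormone UMIs it was 0.949. WT acinar-like cells came mostly from clusters led by Cckar and Rnase1, by trypsinogens, or by Cckar and Sapcd2, and Mettl3pKO ones from clusters led by Serpina6, by Ube2c or by Rrm2. Paired within each of the 6 acinar-like clusters, the ratios were 0.961 to 1.00, and 0.981 over all such pairs. Of the trunk-like cells, 239 of 358 in Mettl3pKO but 361 of 1198 in WT came from a cluster led by Kif23 and Spp1, and most other WT cells from clusters with Col2a1 or Cldn2 among their leading genes. The ratio was 0.961 in the first and 0.883 in the cluster with Col2a1, and the others gave under 30 pairs. It was 0.910 among trunk-like cells with a Y-linked UMI, 1.01 among those with an Xist UMI and 1.01 (0.998 to 1.02) in 36 pairs of trunk-like cells that were not cycling. The trunk-like difference therefore held in some kinds of cells and not in others.

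The beta-like ratio also depended on which cells were compared. Cycling cells were 11.8% of paired beta-like cells in WT and 37.9% in Mettl3pKO, and in 100 pairs that were not cycling the ratio was 1.04. With medians over cells in place of pooled UMIs it was 1.01, and with cells marked as doublets kept it was 0.981. In mesothelium-like cells enzyme UMIs were 0.184% in WT and 0.373% in Mettl3pKO, and with doublets kept the ratio was 0.992. Only 1 Mettl3pKO cell was marked as a doublet, 0.0276%, against 5.30% in WT, and how many doublets remained in either library was not measured.

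Gene by gene, few of the 77 were higher by 25% or lower by 20% in Mettl3pKO. In acinar-like cells 0 of 77 were higher, where 31.3% of 9604 genes were, and 2, Rpl6 and Rpl24, were lower, where 12.2% were. In trunk-like cells 0 were higher, against 21.4% of genes, and 2, Rpl6 and Rpl18, lower, against 10.4%. In mesenchyme-like cells none was higher, against 5.64%, or lower, against 4.14%. In alpha-like cells 1 was lower, against 7.6%, and none higher, against 6.08%. In beta-like cells 5, among them Rpl36a, Rpl12, Rpsa and Rpl29, were higher, against 8.89%, and none lower, against 9.39%. In mesothelium-like cells 6 of 75 were higher, against 9.13%, and none lower, against 11.4%. Erythroid-like cells had 2 higher, Rps27l among them, and 4 lower, among them Rpl6, Rpl7a and Rpl4, against 22.9% and 48.5%. Immune cells had 1 higher, Rps27l, and 1 lower, against 10.4% and 13.8%. The median ratio of the 77 genes in acinar-like cells was 0.969, or -0.05 on the log2 scale, and that of all genes compared 0.12 on the log2 scale. The small and large subunits had the same median in acinar-like cells, 0.969, and 0.956 and 0.954 in trunk-like cells.

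**Figure D5:**
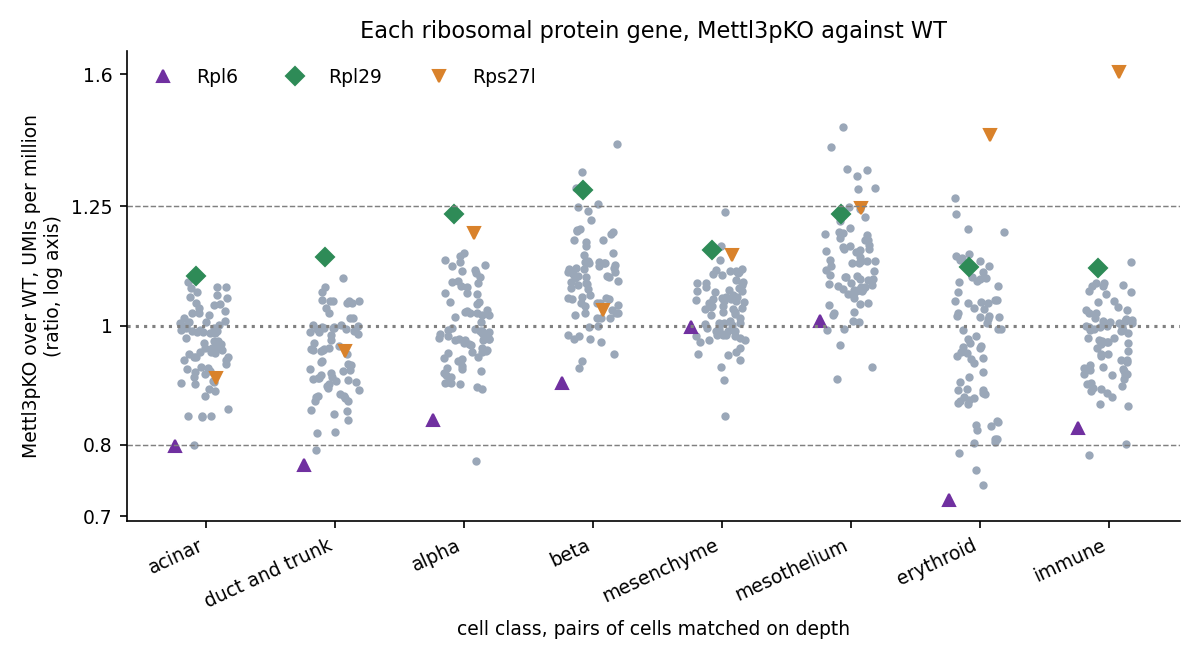
Mettl3pKO over WT ratio of CPM for each ribosomal protein gene (y axis, log axis) in 8 classes of cells paired on depth (x axis); each point is 1 gene, dashed lines mark 25% higher and 20% lower and named genes have their own symbols. Most points lie between these lines; Rpl6 is at 0.799 in acinar-like cells and Rps27l is the highest point in immune cells at 1.61.

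Some genes departed from the rest in the same direction in several classes. Rpl6, a large-subunit protein, was among the 4 lowest of the 77 relative to the other members in 6 of 8 classes. Its ratio was 0.799 in acinar-like cells (3240 and 2588 CPM), 0.771 in trunk-like cells (2514 and 1939), 0.825 in immune cells and 0.722 in erythroid-like cells, but 0.997 in mesenchyme-like and 1.01 in mesothelium-like cells. It was thus low in some classes outside the pancreatic epithelium as well.

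The other acinar gene that was lower was Rpl24, at 1329 and 1062 CPM, a ratio of 0.799, and in trunk-like cells it was Rpl18, at 1008 and 799, a ratio of 0.793. Rpl29, a small large-subunit protein, was among the 4 highest relative to the others in 4 of 8 classes, with ratios of 1.10 in acinar-like (954 and 1048 CPM), 1.14 in trunk-like, 1.23 in alpha-like and 1.15 in mesenchyme-like cells. Rpl32 had 1.08 in acinar-like and 1.20 in erythroid-like cells. In beta-like cells the highest were Rpl36a, with 227.9 and 320.0 CPM and a ratio of 1.40 (1.26 to 1.56), Rpl12 with 1.33 and Rpsa, also known as the laminin receptor, with 1.29. Rpl36a and Rpl12 are the pair that was lowest in WT beta-like against trunk-like cells. Both comparisons use WT beta-like cells, so these ratios are not independent: a low WT beta-like count lowers the first and raises the second.

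Rps27l, although a p53 target, was not higher in Mettl3pKO acinar-like cells. It had 696.3 CPM in WT and 631.3 in Mettl3pKO, a ratio of 0.907 (0.885 to 0.928). In the same cells 9 of 11 genes of ribosome stress and p53 were higher in Mettl3pKO, where 31.3% of 9604 genes were, with a median ratio of 1.93, including Cdkn1a, the inhibitor of the cell cycle, at 161.1 and 336.3 CPM and Phlda3 at 7.59 and 23.2. Rpl5 and Rpl11, which with 5S RNA bind Mdm2, were at 3735 and 3350, a ratio of 0.897, and at 1038 and 1083, a ratio of 1.04. Outside the epithelium Rps27l was not past either bound in mesenchyme-like cells, where none of the 77 genes was higher or lower. It was higher in Mettl3pKO in immune cells, at 142.9 and 229.5 CPM, a ratio of 1.61 (1.248 to 2.075). In erythroid-like cells it was at 350 and 500.2, a ratio of 1.43, where the paired cells are mostly of different clusters. Paired immune and erythroid-like cells also held more enzyme UMIs in Mettl3pKO, 0.336% and 0.810% in immune and 2.48% and 5.22% in erythroid-like cells. WT acinar-like cells are rich in Rps27l. The part of such RNA in the Rps27l values was not tested.

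The other translation lists at matched depth have no test either. In acinar-like cells, where 31.3% of all genes were higher and 12.2% lower, 1 of 38 translation factors was higher and 9 lower, with a median ratio of 0.871. The lowest was Eif3g, at 230 and 156.5 CPM, and the highest Eif4a2, at 304.4 and 383.4. Eef1a1, which brings aminoacyl-tRNA to the ribosome, had 8138 and 9392, a ratio of 1.15. Of 46 assembly factors 9 were higher and 2 lower, with Rrs1 higher at 70.6 and 124.4 CPM, and Bop1, at 83.2 and 54.4, and Ebna1bp2 lower. In trunk-like cells, where 21.4% of all genes were higher and 10.4% lower, 3 of 38 translation factors (Eif3k, Naca and Eif3e) were lower, and 11 of 43 assembly factors were higher and none lower; Rrs1 was at 44.3 and 79.4 CPM. Of 18 regulators of ribosomal protein synthesis in trunk-like cells 6 were higher and none lower. Among the 6 were Mycn, at 28.3 and 59.0 CPM, and Eif4ebp1, the mTOR-regulated inhibitor of cap-dependent initiation, at 29.99 and 51.9. The mitochondrial ribosomal protein genes had 12 of 77 higher and 12 lower in acinar-like cells.

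The sequence GGACT, the form in which the m6A consensus is best known, was counted in the longest GENCODE M21 protein-coding transcript of each gene. It occurred in 42 of 77 ribosomal protein transcripts, 54.5%, against 92.8% of the 12921 genes with at least 200 UMIs, whose transcripts are longer (medians of 3174 bases for those genes, and 1014.5 and 860 bases for members with and without it). In acinar-like cells the median Mettl3pKO over WT ratio was 0.958 for the 42 with GGACT and 0.989 for the 35 without, and in trunk-like cells 0.952 and 0.958. A match says only that the letters are there, and methylation was not measured.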

How the data were processed

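The deposited tables hold UMI counts per cell and gene, 1 table per genotype, made by the authors with the BD Rhapsody WTA analysis pipeline 1.8 per the file headers. The submitters' processing notes also name the build mm10 and Seurat, with no role given. Both tables end within a line, and 1 incomplete cell was dropped from each. Cells with under 200 genes or over 25% mitochondrial UMIs were left out, and doublets were marked with Scrublet as run in scanpy 1.11.5, leaving 6034 WT and 3622 Mettl3pKO cells. Cells were clustered (2000 variable genes, 30 components, Leiden resolution 1.0) without ribosomal protein, mitochondrial, globin and sex-linked genes, and clusters were named from marker lists. Macrophage, mast and lymphoid markers were merged as immune.

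Pooled shares have exact binomial intervals, and ratios between groups exact conditional binomial intervals. For WT against Mettl3pKO, cells of a class were paired on totals within 5%, in classes with at least 30 pairs. Genes needed 200 or more UMIs over the groups compared. A gene counted as higher at 25% above and as lower at 20% below the other group, with no test. The computation was tested on simulated data. The members, lists and markers were chosen with earlier results of these data known. The naming tie rule, the doublet score limit on clusters, the split of progenitor clusters, the 8000 to 12000 UMI window and the Neurog3 and Fev splits were chosen after values were seen. Named genes were the 5 with most and 5 with fewest UMIs in WT, the 8 most class-dependent, the 4 highest and 4 lowest genotype ratios per class relative to the other members, Rps27l, Rps6, Rpl5, Rpl11, the X-linked members, and 2 to 4 genes of each list farthest from 1. Genes at the ends of the WT class comparisons, and Dkc1, Taf1d, Eif4e, Mxd4, Larp1, Myc and other list genes with contrasting values, were named after their values were seen. Some genes that met the rule are not reported here.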

Additional observations from a re-analysis of the deposited data

Results flagged for a closer look

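The ratio of the ribosomal protein share, Mettl3pKO over WT at matched depth, went in opposite directions in different classes. It was 0.960 in acinar-like, 0.944 in trunk-like, 0.987 in alpha-like, 0.962 in immune and 0.962 in erythroid-like cells, and 1.08 in beta-like, 1.02 in mesenchyme-like and 1.10 in mesothelium-like cells. Each has 1 library per genotype, and the difference between classes was not tested.

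Columns of 8 ribosomal protein pseudogenes, which the name rule leaves out, held 755.7 CPM (UMIs per 1000000 UMIs) in WT and 802.0 in Mettl3pKO. Of these the highest was Rpl10-ps3, with 365.3 and 381.5 CPM, and its parent Rpl10 had 676.1 and 861.7 over the same cells. Rps3a1, a ribosomal protein gene whose name ends in a digit and so falls outside the rule, had 1751 CPM in WT and 1874 in Mettl3pKO.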

How the results depend on the processing

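No paired analysis was possible because each genotype has 1 library. Changes are counted against the counting interval alone, which is narrow, so that many values moved by little. Some genotype ratios changed direction, as given below. Under a stricter filter on cells (500 genes or more, 10% mitochondrial UMIs or less), the WT acinar-like share was 16.5%, the trunk-like share 12.5%, the beta-like over trunk-like ratio 0.380, and the Mettl3pKO over WT ratio 0.955 in acinar-like, 0.934 in trunk-like and 1.02 in alpha-like cells. With doublets kept these were 16.6%, 12.8%, 0.390, 0.962 and 0.948, and the genotype ratio changed direction in beta-like (0.981), mesothelium-like (0.992) and erythroid-like cells (1.03). At Leiden resolution 0.5 the beta-like over trunk-like ratio was 0.387 and the genotype ratio 0.983 in trunk-like and 1.24 in alpha-like cells, and at 2.0 the acinar-like share was 16.7% and the genotype ratio 0.957 in acinar-like and 1.00 in alpha-like cells. Without mitochondrial UMIs the shares were 17.9% and 14.0%, the beta-like over trunk-like ratio 0.365 and the genotype ratios 0.993 (acinar-like) and 0.948 (trunk-like). Without mitochondrial, enzyme and hormone UMIs they were 21.0%, 14.1%, 0.457, 0.949 and 0.949, with 1.01 in alpha-like and 1.02 in erythroid-like cells. Without the 5 genes with most UMIs the shares were 14.4% and 11.2%, the beta-like over trunk-like ratio 0.380 and the acinar-like genotype ratio 0.963. Medians over cells gave 16.6%, 12.5%, 0.382 and, for trunk-like cells, 0.955.

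Without pairing, the genotype ratio was 1.02 in alpha-like, 0.912 in mesenchyme-like, 1.053 in immune and 1.07 in erythroid-like cells. In cells with 13000 UMIs or more it was 0.964 in acinar-like, 0.939 in trunk-like, 1.03 in alpha-like and 1.01 in immune cells, and with pairs within 1% it was 0.934 in trunk-like cells. Cells with a Y-linked UMI gave 0.972 in acinar-like and 0.910 in trunk-like cells, and cells with an Xist UMI 0.954 and 1.01. In alternatives chosen after seeing the data, pairs within a cluster gave 0.981 in acinar-like and 0.952 in trunk-like cells, and cells that were not cycling 0.953 and 1.01. The count of ribosomal protein genes past the threshold in acinar-like cells, 2, became 1 without pairing, 0 with the stricter cell filter and 0 at 1.5-fold. With no minimum of UMIs it was 4, but that setting takes all 80 genes of the name rule, with the almost silent Rpl3l, Rpl39l and Rpl10l. The trunk-like count of 2 became 5 in cells with a Y-linked UMI and 0 at 1.5-fold. The 10 acinar-like translation factors became 0 at 1.5-fold. The cause of these changes was not tested. The smaller classes gave no value under some settings, since fewer than 30 pairs were left. Depth limits the smaller classes most: Rps27l in immune cells rests on 104 WT and 162 Mettl3pKO UMIs.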
